A study of Mus musculus with 14 samples.

Results

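Carriers of organic anions, organic cations and bile acids were examined in the liver of male Apoe-deficient mice, C57BL/6 by the labels and C57BL/6J by the methods of the study. They were chosen by gene symbol alone, as the members of the Slco, Slc22a, Slc10a, Slc47a and Slc51 families in the table of gene expression, and numbered 43 of 17552 genes: 12 Slco, 21 Slc22a, 7 Slc10a and 2 Slc47a genes and Slc51b. All mice lacked apolipoprotein E, were 8 weeks old by the labels and received a Western diet, either alone (control) or with 10 mg/kg of erythrodiol, a triterpene of the olive. The labels give 8 weeks of feeding, and the methods of the study a longer period. RNA of a few mice was pooled for each library, with 7 libraries per group. Slc51a, whose product is the partner of that of Slc51b, was not analysed here.

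Hepatocytes take up bile acids, bilirubin, hormones and drugs from the blood through carriers of the sinusoidal membrane. The sodium-dependent carrier NTCP (Slc10a1) takes up conjugated bile acids, the organic anion transporting polypeptides (Slco genes) take up a wide range of organic anions, and the Slc22 family divides into carriers of organic cations, of carnitine and of organic anions. MATE1 (Slc47a1) returns cations to the bile, and the heteromer of OSTα and OSTβ (Slc51a, Slc51b) returns bile acids to the blood. Many of these genes lie in arrays of related copies.

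Expected counts were deposited as 1 sum per gene and group over the 7 libraries, so each carrier has 1 value per group, no spread between libraries is known and no test over mice was possible. The sums of all genes were 122889032 counts in the control and 124686047 in the erythrodiol group. Control libraries held from 34856340 to 55244294 clean reads and erythrodiol libraries from 47669656 to 48058606. Control replicate 3 stood apart, with a genome mapping rate of 76.7% against 92.0% to 94.6% in the other libraries of its group, and by its mapping rates gave 9.12% of the control sum. Its part in the values below was not tested, since no gene value can be had without it. Reads mapped to a unique place of the genome were 41.6% to 69.1% in control libraries and 64.0% to 68.0% in erythrodiol libraries. Control replicates 1 (55.3%), 2 (62.6%), 3 (41.6%) and 4 (56.2%) lay below the lowest erythrodiol library. The part of this difference between the groups in the values of the carriers was not tested either. Apoe itself held 9403 counts in the control and 8293 with erythrodiol, and hepatocyte markers (Alb, Ttr, Apoa2, Serpina1a, Cyp2e1, Tat) summed to a level of 59315 and 59163, of which Alb made 38801 and 37341. Against genes of like length 5 of these 6 markers were above 0 and 0 differed by 1.3-fold, with a median of 0.21, and by column totals 4 were above 0 and 1 (Tat) was 1.3-fold higher. A level here is counts per kilobase of the gene length in the table and per 1000000 counts of the group, and levels alone are compared between genes.

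A pair of scales is used for a difference between the groups. The first is the log2 ratio of erythrodiol to control after each group is divided by its total. On that scale longer genes were higher with erythrodiol in general, with a median of -0.18 in the shortest 10% of genes and of 0.33 in the longest 10%. The second scale therefore subtracts the median log2 ratio of the 500 genes nearest in length, and a value on it is called a log2 ratio against genes of like length. Intervals are exact 95% binomial intervals and cover counting error only. Both scales and the fold limits below were used for genes with at least 100 counts over both groups, which 27 of the 43 carriers and 13291 genes in all reached.

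**Figure D1:**
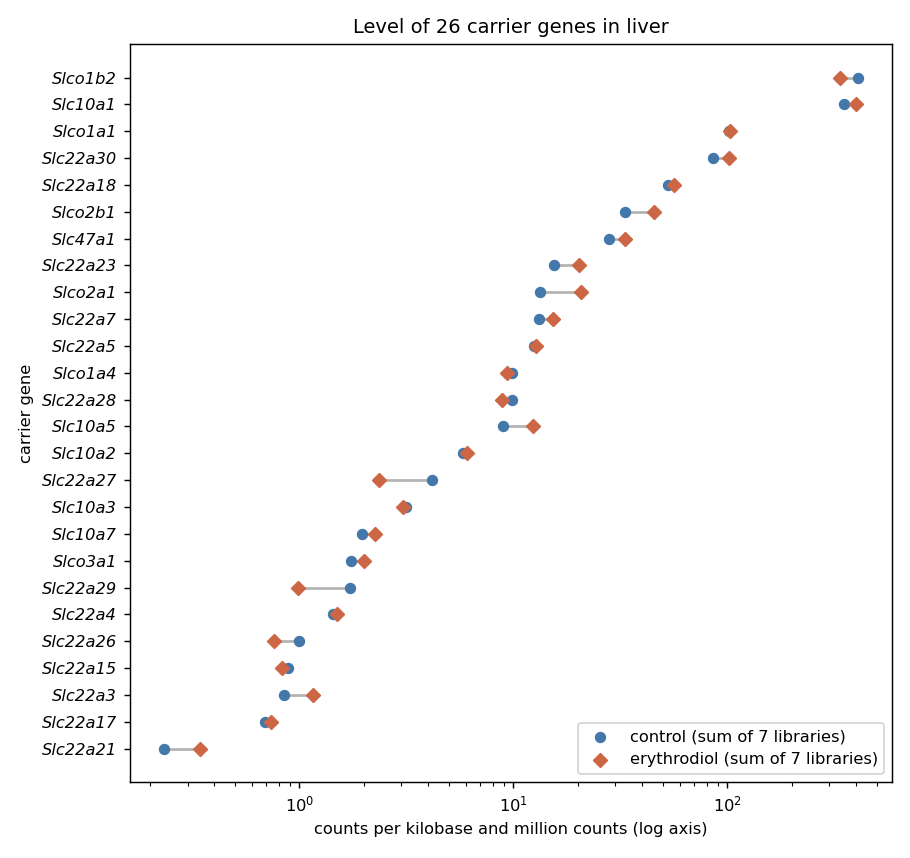
Level of 26 carriers with at least 100 counts, in counts per kilobase and per 1000000 counts (log axis); a circle is the control sum and a diamond the erythrodiol sum, with no error bar since each is 1 pooled value. Slco1b2 leads in the control and Slc10a1 with erythrodiol, and Slc22a27 and Slc22a29 lie visibly lower with erythrodiol.

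The largest shares of carrier RNA came from Slco1b2 and Slc10a1. Slco1b2 made up 29.7% of the summed level of all 43 carriers in the control and 23.9% with erythrodiol. Slc10a1 made up 25.7% in the control and 28.5% with erythrodiol. Slco1b2 encodes OATP1B2, the main sinusoidal carrier of bilirubin and statins in mice. It was first in the control, at a level of 407, and second with erythrodiol, at 335. Slc10a1 was second in the control, at 353, and first with erythrodiol, at 399. The level of Slc10a1 was thus 0.866 times that of Slco1b2 in the control and 1.19 times with erythrodiol. Slco1a1 (OATP1A1) had a level of 102 and 103. All carriers together held 0.359% of the counts in the control and 0.362% with erythrodiol, so that the order of the leading carriers differed more than their sum.

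The starts of both leading genes are printed here because they changed places in that order. The sequences are those of RefSeq on GRCm38.p6, from 250 bases before to 50 after the start of transcription. Promoters were found for 35 of the 43 carriers, 41 starts in all. Capitals mark 3 short motifs searched at any position on both strands, each also read on the other strand as its reverse complement. They are TATAAA (the sequence of a TATA box), GTTAAT (the half-site of HNF1 factors) and AGGTCA (the half-site of many nuclear receptors). A match is one of sequence only, and whether it acts in transcription was not tested. For Slc10a1, with 2 starts, the first in the table is shown. Capitals of 2 motifs do not overlap in the sequences shown.
Slco1b2 (chr6:141629268-141629567, plus strand): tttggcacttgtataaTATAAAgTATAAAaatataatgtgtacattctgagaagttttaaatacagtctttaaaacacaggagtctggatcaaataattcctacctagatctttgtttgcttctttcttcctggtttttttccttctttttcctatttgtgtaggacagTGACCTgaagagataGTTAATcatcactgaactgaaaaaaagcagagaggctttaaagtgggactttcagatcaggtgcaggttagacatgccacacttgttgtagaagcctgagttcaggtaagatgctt
Slc10a1 (chr12:80968656-80968955, minus strand): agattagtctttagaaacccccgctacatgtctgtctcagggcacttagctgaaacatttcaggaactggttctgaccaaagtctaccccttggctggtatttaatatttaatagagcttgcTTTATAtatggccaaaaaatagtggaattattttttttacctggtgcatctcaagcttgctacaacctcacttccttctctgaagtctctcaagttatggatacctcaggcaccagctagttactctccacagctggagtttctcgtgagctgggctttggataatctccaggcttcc
In Slco1b2 TATAAA stood at -234 and -227, AGGTCA at -81 and GTTAAT at -66 from the start. At the start of Slc10a1 shown here TATAAA stood at -128, and the start of Slc10a1 that is not shown holds AGGTCA. The start listed for Slco1b2 lies inside its gene, which begins at 141629452, and the start of Slc10a1 shown lies at the outer end of its gene. The distances in these genes are therefore not of like positions. Over all carriers, TATAAA was found at 9 of 41 starts (22.0%), against 13.6% of 32851 starts in RefSeq, GTTAAT at 4 (9.76% against 7.10%) and AGGTCA at 7 (17.1% against 16.3%).

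Against genes of like length, 1 of the 27 carriers was at least 1.3-fold higher with erythrodiol, Slco2a1, while 3.78% of all genes were. At least 1.3-fold lower were 5 of 27 (18.5%), Slco1b2, Slc22a27, Slc22a29, Slc22a26 and Slc22a15, beside 10.4% of all genes. A difference of at least 2-fold was seen in 0 of 27, and in 0.617% of all genes. The median of the 27 carriers was -0.04, and that of all genes 0.00. By column totals alone the split was another one, with 6 carriers at least 1.3-fold higher (Slco2b1, Slc22a23, Slco2a1, Slc10a5, Slc22a3 and Slc22a21) where 16.3% of all genes were, and 3 at least 1.3-fold lower (Slc22a27, Slc22a29 and Slc22a26) where 7.27% were. For 8 carriers, such as Slco1a1, Slc10a2 and Slc22a5, the sign depended on the scale, being above 0 by column totals and below 0 against genes of like length. The share of such genes was 24.5% over all genes.

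**Figure D2:**
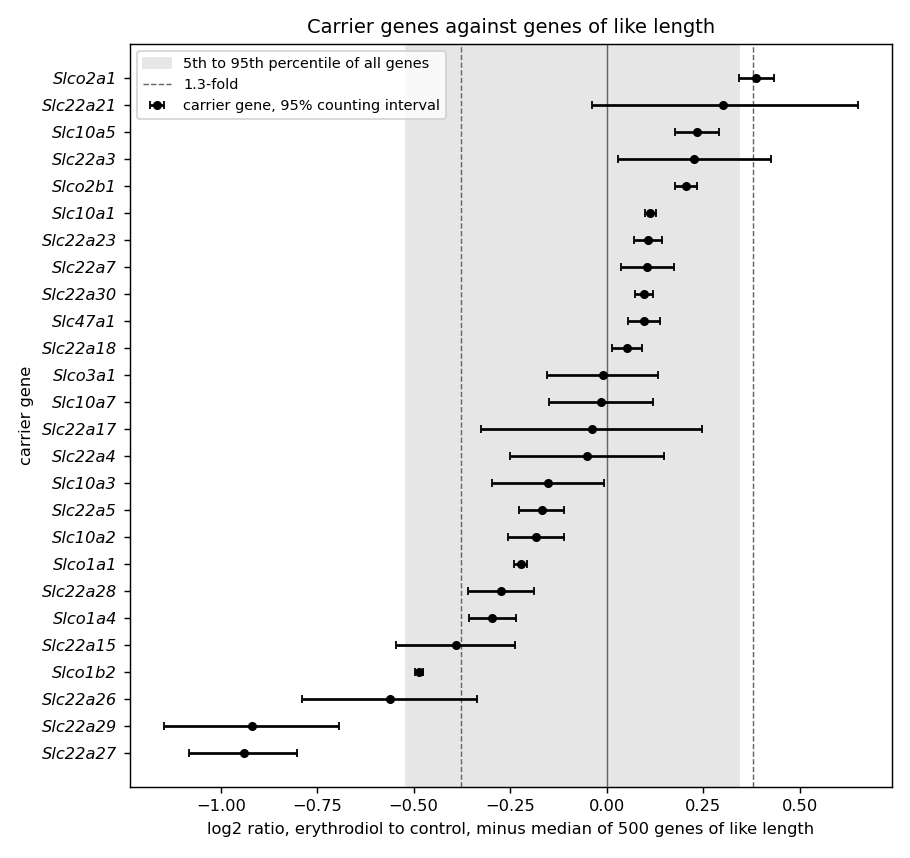
Log2 ratio of erythrodiol to control against genes of like length for 26 carriers, with 95% counting intervals; the grey band is the 5th to 95th percentile of all 13291 genes and dashed lines mark 1.3-fold. Slco2a1 lies beyond the band on the higher side and Slc22a26, Slc22a29 and Slc22a27 on the lower side, and the other carriers drawn lie inside it.

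**Figure D3:**
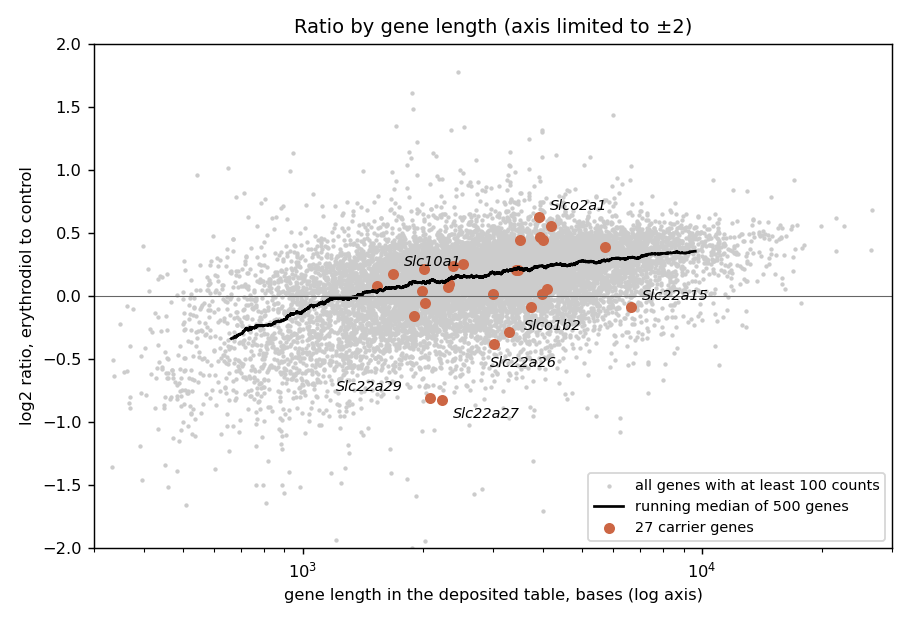
Log2 ratio by column totals (vertical) against gene length in bases (log axis) for all 13291 genes, with the running median of 500 genes and the 27 carriers; 11 genes lie beyond the vertical limits. The median rises with length, and Slco1b2, Slc22a26, Slc22a27, Slc22a29 and Slc22a15 lie below it while Slco2a1 lies above.

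Among carriers of bile acids, Slc10a1 held 72910 counts in the control against 83725 with erythrodiol, a ratio of 1.13 (1.12 to 1.14) by column totals. Against genes of like length its log2 ratio was 0.11, above 67.2% of the 500 genes. NTCP was thus well inside the spread of other genes. Slc10a2 encodes ASBT, the sodium-dependent carrier of the ileum and of bile ducts. It had 2930 and 3088 counts, a level of 5.83 and 6.06, and a log2 ratio of 0.05 by column totals but -0.18 against genes of like length. Slc51b (OSTβ) was near the limit of detection, with 56 counts in the control and 34 in the erythrodiol group. Markers of bile duct cells were lower beside these values. Of Krt19, Krt7, Epcam, Sox9 and Spp1 all 5 were below 0 on either scale. Against genes of like length 3 of them (Krt19, Epcam and Spp1) were at least 1.3-fold lower, beside 10.4% of all genes. Cftr had 54 and 30 counts. The list of 6 summed to a level of 77.1 in the control and 51.4 with erythrodiol, of which Spp1 made 71.2 and 46.9. In whole liver, fewer cells of a type and less RNA per cell cannot be told apart, and the part of bile duct cells in the values of Slc10a2 and Slc51b was not tested.

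The other Slc10 genes encode proteins that do not carry bile acids or whose substrates are less settled. Slc10a5 was the one with the larger difference, at 4306 counts in the control against 6059 with erythrodiol, a ratio of 1.39 (1.33 to 1.44). Its log2 ratio against genes of like length was 0.23, above 89.6% of them and short of 1.3-fold. Slc10a3 had 784.0 and 767.6 counts, and 7.36% of its sequence windows recur in transcripts of its neighbour Ubl4a. Slc10a7 had 836 and 978 counts. Against genes of like length Slc10a3 lay at -0.15 and Slc10a7 at -0.01. Slc10a6, a carrier of sulfated steroids, had 17 and 18 counts, and Slc10a4 1 count in the control and 0 with erythrodiol.

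The Slco1 genes take up organic anions, and all 3 with at least 100 counts were below 0 against genes of like length, Slco1a1 being just above 0 by column totals. Slco1b2 held 164387 counts in the control against 137080 with erythrodiol, a ratio of 0.822 (0.816 to 0.828) by column totals. Among the 500 genes of like length 3.6% were lower still, and the log2 ratio of -0.49 corresponds to a 1.40-fold lower value. The 1.3-fold limit was not reached by column totals alone, with -0.28, nor against genes of like length and like level, with -0.36. Slco1a4 (OATP1A4, uptake of digoxin) had 4545 and 4339 counts and a log2 ratio of -0.30 against genes of like length. Slco1a1 had 49527 and 50810 counts, a ratio of 1.01 (0.999 to 1.02), and a log2 ratio of 0.02 by column totals but -0.22 against genes of like length. The level of Slco1a1, which is known to be predominant in male liver, was 10.3 times that of Slco1a4 in the control and 11.0 times with erythrodiol.

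These genes form an array on chromosome 6 of GRCm38, from 141524354 to 142322981, in the order Slco1c1, Slco1b2, Slco1a4, Slco1a1, Slco1a6 and Slco1a5. Only the 3 genes in its middle reached 100 counts. Slco1c1, the carrier of thyroxine at the blood-brain barrier, had 11 and 12 counts. Slco1a6 had 7 and 1 counts, and Slco1a5 was listed at 0 in the control with 2.02 counts in the erythrodiol group. Little of the sequence of these genes is shared: at most 0.64% of the windows of 100 bases in the transcripts of Slco1a1 and Slco1a4 recur in another gene, and none of those of Slco1b2.

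**Figure D4:**
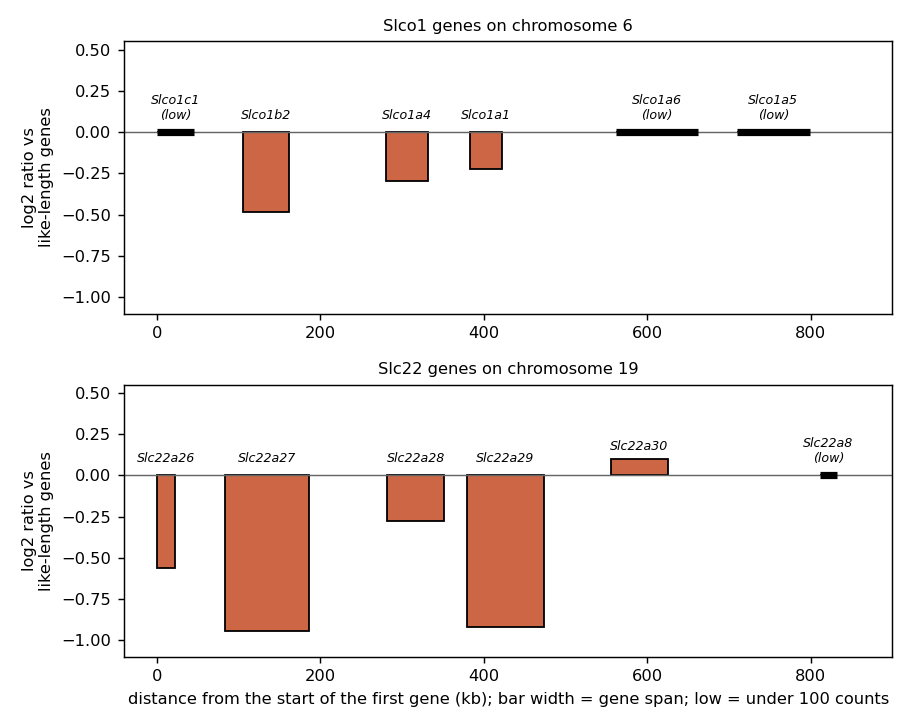
Log2 ratio against genes of like length for the Slco1 array on chromosome 6 and the Slc22 array on chromosome 19, with distance from the first gene in kb on the horizontal axis; bar width is the span of the gene, and flat black bars (low) are genes under 100 counts with no ratio drawn. All 3 measured Slco1 genes lie below 0, and in the Slc22 array 4 of 5 do, with Slc22a30 above 0.

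The other Slco genes with at least 100 counts lay above 0 or near it. Slco2a1, the prostaglandin carrier, held 6434 counts in the control and 10071 with erythrodiol, 1.54 times as many after scaling. It was above 97.0% of genes of like length, with a log2 ratio of 0.39 and a fold of 1.31. The counting interval of that log2 ratio, 0.34 to 0.43, includes the 1.3-fold limit, and the value was 0.35 against genes of like length and like level. Of 5 markers of sinusoidal endothelium, a cell type of the liver other than hepatocytes, 1 (Kdr) was above 0 against genes of like length and 3 (Kdr, Stab2 and Pecam1) by column totals. None of the 5 differed by 1.3-fold on either scale, with medians of -0.17 and 0.14, and the list summed to a level of 52.5 in the control and 49.2 with erythrodiol, of which Clec4g made 33.8 and 28.3. The part of these cells in the value of Slco2a1 was not tested. Slco2b1 (OATP2B1, uptake of sulfated steroids) had 16309 and 22515 counts, a ratio of 1.36 (1.33 to 1.39), and a log2 ratio of 0.21 against genes of like length, above 88.8% of them. Slco3a1 had 730 and 853 counts and lay at -0.01 against genes of like length. Slco4a1 had 31 and 41 counts, Slco5a1 6 and 15, and Slco4c1, a carrier of the kidney, 1 and 0.

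Slc22a27, Slc22a29 and Slc22a26, the carriers with the lowest log2 ratios against genes of like length, lie in an array of Slc22 genes on chromosome 19, from 7780094 to 8405111, in the order Slc22a26, Slc22a27, Slc22a28, Slc22a29 and Slc22a30. These genes belong to the organic anion branch of the family, which has expanded in rodents. Slc22a27 had 1145 counts in the control against 657.1 with erythrodiol, a ratio of 0.566 (0.513 to 0.623). It was 1.92-fold lower against genes of like length, of which 0.2% were lower. Slc22a29 had 442.1 and 256.1 counts, a ratio of 0.571 (0.487 to 0.667), and was 1.89-fold lower against genes of like length. Slc22a26 had 368 and 287 counts, a ratio of 0.769 (0.656 to 0.899), and was 1.48-fold lower. The counting interval of that value, a log2 ratio of -0.79 to -0.34, includes the 1.3-fold limit. By column totals the log2 ratio of Slc22a26, -0.38, was only just past that limit. These 3 genes were past 1.3-fold under every alternative that gave a value. Their levels were low, with the highest, that of Slc22a27, at 4.18 in the control and 2.37 with erythrodiol.

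In both remaining genes the counts were higher and the differences smaller. Slc22a8, which follows beyond Slc22a30 from 8591254, held almost no counts. Slc22a28 had 2308 and 2099 counts and a log2 ratio of -0.27 against genes of like length. Slc22a30 had 25122 and 30074 counts, a ratio of 1.18 (1.16 to 1.20), and a log2 ratio of 0.10 against genes of like length. These neighbours therefore lay on either side of 0. Reads can be split between them in the counting: 36.9% of the windows of 100 bases in the transcripts of Slc22a28 recur in Slc22a30, and 20.9% of those of Slc22a30 in Slc22a28. Slc22a27 shares 7.07% of its windows with Slc22a29 and Slc22a26 0.558% with any other gene, and the values of Slc22a28 and Slc22a30 are the more uncertain ones.

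The starts of this array are shown because the starts of neighbouring copies are alike to different degrees. Slc22a28 is written in lower case as the base of comparison, and capitals in Slc22a29 and Slc22a30 mark bases that do not match it in a global alignment.
Slc22a28 (chr19:8131933-8132232, minus strand): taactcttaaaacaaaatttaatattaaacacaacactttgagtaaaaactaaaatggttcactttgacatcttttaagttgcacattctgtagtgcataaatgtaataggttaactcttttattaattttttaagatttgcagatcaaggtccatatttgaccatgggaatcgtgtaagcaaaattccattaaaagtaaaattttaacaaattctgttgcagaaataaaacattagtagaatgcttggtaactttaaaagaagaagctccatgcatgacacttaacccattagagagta
Slc22a30 (chr19:8405056-8405355, minus strand): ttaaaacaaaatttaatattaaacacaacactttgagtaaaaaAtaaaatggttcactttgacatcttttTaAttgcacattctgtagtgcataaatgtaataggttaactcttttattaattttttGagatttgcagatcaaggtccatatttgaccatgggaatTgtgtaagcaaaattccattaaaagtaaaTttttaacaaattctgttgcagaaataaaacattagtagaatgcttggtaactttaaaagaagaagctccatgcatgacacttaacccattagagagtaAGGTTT
Slc22a29 (chr19:8218851-8219150, minus strand): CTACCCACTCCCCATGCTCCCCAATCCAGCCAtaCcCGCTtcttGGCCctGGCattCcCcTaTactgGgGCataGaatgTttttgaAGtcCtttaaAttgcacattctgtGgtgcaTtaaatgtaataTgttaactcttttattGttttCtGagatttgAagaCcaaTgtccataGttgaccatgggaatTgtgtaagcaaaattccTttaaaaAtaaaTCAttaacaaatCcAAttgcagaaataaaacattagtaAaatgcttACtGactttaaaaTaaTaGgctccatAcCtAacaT
Of the 300 bases, Slc22a30 shared 96.0% with Slc22a28, and Slc22a29 shared 71.0%. The start listed for Slc22a29 lies inside the span of that gene, 8160168 to 8253375, and not at its outer end as in Slc22a28. The 2 percentages are therefore not of like positions. The start listed for Slc22a27 also lies inside its gene, which ends at 7966517. The start of Slc22a27 is added as that of the carrier with the lowest ratio, with capitals for AGGTCA on either strand, at -119 from the start.
Slc22a27 (chr19:7965978-7966277, minus strand): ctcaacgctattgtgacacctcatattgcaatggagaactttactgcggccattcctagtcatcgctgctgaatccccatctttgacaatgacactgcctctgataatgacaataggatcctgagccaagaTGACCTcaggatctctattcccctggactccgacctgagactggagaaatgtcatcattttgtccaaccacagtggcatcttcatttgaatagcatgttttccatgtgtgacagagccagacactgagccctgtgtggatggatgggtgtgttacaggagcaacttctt

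Among carriers of organic cations, Slc22a3 (OCT3) had 365 and 504 counts and a log2 ratio of 0.23 against genes of like length, and Slc22a2 (OCT2, a carrier of the kidney) 1 and 0. Slc47a1 (MATE1) had 8681 and 10492 counts, a ratio of 1.19 (1.16 to 1.23), and a log2 ratio of 0.10 against genes of like length. Slc47a2, its neighbour on chromosome 11, had 9 and 7 counts.

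The carriers of carnitine and zwitterions lay on both sides of 0. Slc22a5 (OCTN2, the carnitine carrier) had 4603 and 4733 counts, with a log2 ratio of 0.02 by column totals and -0.17 against genes of like length. Slc22a4 (OCTN1, uptake of ergothioneine) had 406 and 433 counts and lay at -0.05 against genes of like length. Slc22a21 (OCTN3) had 120.3 and 179.2 counts, a ratio of 1.47 (1.16 to 1.87), and lay at 0.30. Slc22a21 shares 10.6% of its windows with Slc22a5, which had many more counts, so that its value is uncertain. Slc22a15 had 718 and 686 counts, a ratio of 0.942 (0.847 to 1.05), and at 6641 bases was the longest carrier measured. The 1.31-fold lower value of Slc22a15 against genes of like length (log2 ratio -0.39) rests on the correction for length, being -0.09 by column totals, where the counting interval of the ratio includes 1.

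Of the remaining Slc22 genes, Slc22a7 (OAT2, a hepatic carrier of organic anions) had 3245 and 3828 counts and a log2 ratio of 0.11 against genes of like length. Slc22a18 had 9952 and 10700 counts and lay at 0.05, Slc22a23 had 10843 and 14432 and lay at 0.11, and Slc22a17 had 197 and 214 and lay at -0.04. None of these differed from genes of like length by 1.3-fold. Carriers known from the kidney and testis were at the limit of detection, with Slc22a8 (OAT3) at 3 and 2 counts, Slc22a12 (the urate carrier URAT1) at 1 and 1, Slc22a14 at 3 and 3, Slc22a13 at 17 and 13 and Slc22a22 at 8 and 5. At these counts a difference was not detectable. Of the kidney tubule markers, Umod and Slc34a1 had 1 count in the control and 0 with erythrodiol, while Lrp2 had 165 and 244, with a log2 ratio of 0.54 by column totals and 0.19 against genes of like length.

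The assembled transcripts add isoforms to many carriers. Of the 27 carriers with at least 100 counts, 17 had at least 1 assembled coding transcript that the reference lacks, and Slc51b had 1 too, while 35.8% of all genes with at least 100 counts had one. Slc22a21 had 7, Slc22a29 5 and Slc22a4 4 such transcripts, and Slco1b2 and Slco1a1 none. These were assembled over all libraries together, so the groups cannot be compared. No carrier was among the genes of the 16 splicing events that the authors kept as differing.

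Genes that work with these carriers were described by lists. Over all genes, 3.78% were at least 1.3-fold higher and 10.4% lower against genes of like length. By column totals these shares were 16.3% and 7.27%. The lists are short, and no difference of a list from these shares was tested. Of 13 export pumps, 2 were at least 1.3-fold lower against genes of like length, Abcc4 (-0.53) and Abcg2 (-0.39), 0 were higher and the highest was Abcb1b (0.36), with a median of -0.01. By column totals 4 were at least 1.3-fold higher and 0 lower, with a median of 0.26. The bile salt export pump Abcb11, named here for its role after its values were seen, lay at -0.01. Of 15 genes of bile acid synthesis and conjugation, 2 were higher, Cyp7a1, the rate-limiting enzyme, at 1.04 and Cyp39a1 at 0.69, and Akr1c6 was lower at -0.55, with a median of 0.04, and by column totals 3 were higher and 1 lower. Of 17 regulators, 1 was higher, Nr0b2 (SHP, which represses bile acid synthesis), at 0.42, and 0 lower, with a median of 0.13, and by column totals 7 were higher and 0 lower. The lowest was Cebpa (-0.27). Nr1h4, the bile acid receptor FXR, likewise named for its role, lay at 0.05. Of 14 targets of CAR, PXR, PPARA and NRF2, 1 was higher, Cyp2b10, 2.84-fold with 43.2 and 134 counts, and 0 lower, with a median of -0.05, and by column totals 2 were higher and 1 lower.

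Lists of sex-dependent liver genes hold Slco1a1 (male-predominant) and Slco1a4 (female-predominant). Of 12 male-predominant genes 1 was lower, Mup20 (-0.46), and 0 higher, with a median of -0.04. Of 7 female-predominant genes with at least 100 counts, of 13 in the list, Cyp2b13 (-3.72), Cyp2b9 (-2.11) and Hao2 (-2.04) were lower and Cyp17a1 (1.05) was higher, with a median of -0.30. In both lists the counts by column totals were the same, and the shares over all genes are those given for the lists above. Cyp2b9, Cyp2b10, Cyp2b13 and Hao2 were singled out by the study on these libraries and are not independent evidence of a direction. By quantitative PCR on single livers, the study reported significant changes of Cyp2b9 (lower) and Cyp2b10 (higher) and no significant change of Cyp2b13. Slco1a1 at -0.22 and Slco1a4 at -0.30 lay between the extremes of their lists. The median of the female-predominant list is the value of Slco1a4 itself.

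**Figure D5:**
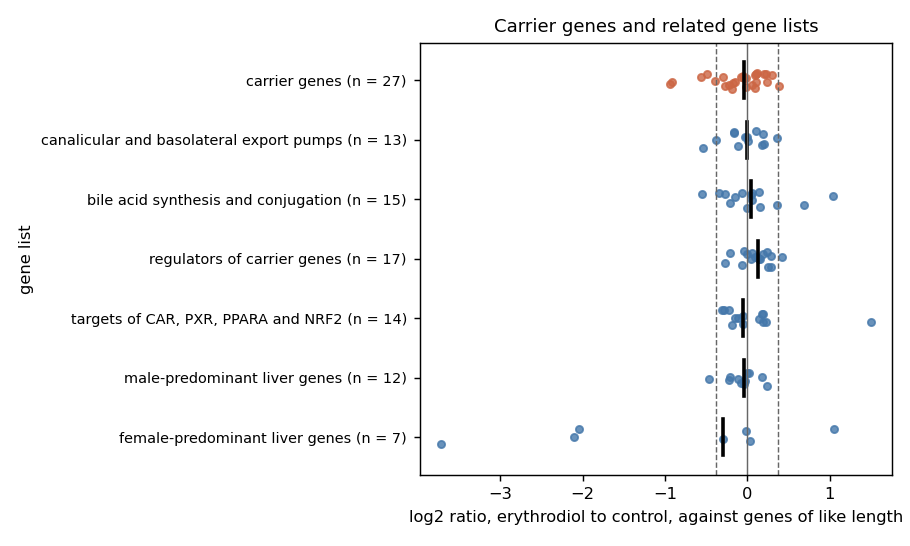
Log2 ratio against genes of like length for the 27 carriers and the genes with at least 100 counts of 6 related lists; each point is a gene, the black bar is the median and dashed lines mark 1.3-fold. The carriers spread between -0.94 and 0.39, with a median of -0.04, and the lowest points are female-predominant genes.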

How the data were processed

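Poly-A RNA of pooled livers, 7 pools per group, was read from both ends by the authors, and groups follow the labels. The authors mapped clean reads with Bowtie2 to RefSeq plus assembled coding transcripts and counted them with RSEM (versions not given in the sources used here). They deposited expected counts per gene, summed over the libraries of a group and not normalized, together with ratios and q-values of their own comparison, which were not used. Counts of clean reads and mapping rates in percent were deposited by the authors per library.

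Here each group was divided by its total, and the median log2 ratio of the 500 genes nearest in length was subtracted, over genes with at least 100 counts. With 1 value per group no test was made. Calls are fold limits of 1.3 and 2. Binomial intervals (95%) used rounded counts and cover counting error only. The members, lists and limits were chosen with earlier results of these data known. By rule, every carrier with at least 100 counts is named with its values, except 1 that is not reported here and is kept in the counts and medians. From the lists of related genes examples are named, and the lists of markers cover hepatocytes, bile duct, endothelial, Kupffer, stellate, kidney tubule, intestinal and pancreatic cells. Shared sequence was counted as exact windows of 100 bases between GENCODE vM21 transcripts. Alternatives were 2 other scalings, 3 other count limits, 200 or 1000 genes of like length, genes of like length and level, and a pseudocount of 1. Protein sequences were not used here. Calculations used scipy 1.17.1 and pandas 2.3.3 with numpy 2.4.6 in Python 3.11.15, alignments biopython 1.88 and plots matplotlib 3.10.9.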

Additional observations from a re-analysis of the deposited data

Results flagged for a closer look

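Control replicate 3 lay far from the other control libraries by its rate of mapping to the genome, 76.66%, and to genes, 64.33%. No other library stood as far from its group in the 10 sets searched, 5 mapping and depth measures in each of the 2 groups, and the limit used, Dixon’s critical value at 95%, is one that about 1 in 20 such sets pass by chance. Gene values are sums over libraries, so no carrier can be given without this library.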

How the results depend on the processing

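Over the 9 alternatives no carrier past 1.3-fold changed sign. By column totals alone, 6 carriers were at least 1.3-fold higher and 3 lower, beside 16.3% and 7.27% of all genes. With centring on the median of all genes 2 were higher. With at least 10 counts, which leaves 35 carriers, 2 were higher, 9 lower and 1 differed 2-fold, and with no minimum (39 carriers) 2 were higher, 11 lower and 1 differed 2-fold. With at least 1000 counts, which leaves 21 carriers, 0 were higher and 3 lower. Against 500 genes of like length and level 3 were lower. Except for column totals alone, the share over all genes was not taken under these alternatives. Their counts have no share beside them and are not a result about the carriers. Other count limits change the number of carriers counted, and for the other alternatives the cause was not tested. Without the correction for length the log2 ratios of 19 carriers (column totals) and 10 (centred) moved past their counting interval, and under each other alternative those of at most 4. No paired analysis was possible because genes have 1 pooled value per group, and for the same reason no library could be left out. The counting intervals hold no spread between mice, which is unknown here.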

Other observations

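Lists of markers of other cell types differed between the groups to unlike degrees. Over all genes, 10.4% were at least 1.3-fold lower against genes of like length. Of 6 markers of Kupffer cells and macrophages, 4 were at least 1.3-fold lower with erythrodiol against genes of like length. These were Cd5l (-0.81), Clec4f (-0.79), Adgre1 (-0.95) and Timd4 (-0.55). Csf1r (-0.37) fell short of that limit and Cd68 lay at 0.05. The list summed to a level of 409 in the control and 275 with erythrodiol, of which Cd5l made 261 and 160. Of 5 stellate cell markers, Lrat (-0.42) was lower against genes of like length and Hand2 lay at 0.24, while by column totals 3 of 5 were above 0 and none differed by 1.3-fold. Their summed levels were 158 and 144, of which Dcn made 142 and 126. Of the intestinal markers, 2 had at least 100 counts, and Fabp2 was lower (-0.59) while Apoa4, which hepatocytes also express, lay at 0.02. Both pancreatic markers with at least 100 counts were lower, Amy2a5 (-2.52) and Cela1 (-0.47). Of those with fewer counts, Ctrb1 had 8 and 42, Cpa1 2 and 15, Prss2 15 and 8 and Pnlip 11 and 10. Amy2a5, Ctrb1 and Cpa1 were also singled out by the study on these libraries. Its quantitative PCR on single livers gave significantly lower Amy2a5 and no significant change of Ctrb1.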
